A study of Mus musculus with 15 samples.

Results

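Nrf2, the transcription factor encoded by Nfe2l2, its inhibitor Keap1 and 8 antioxidant and detoxifying genes were followed in RNA of the embryonic mouse pancreas. They were the rows of the count table whose Ensembl identifier carried these 10 symbols in the GENCODE M21 annotation, out of 25292 genes, and all 10 had enough reads to be tested. The 15 libraries fell into 5 groups of 3. Pancreata labelled wt or S1pr2 null (allele S1pr2tm1Rlp, on C57BL/6J) were taken fresh at 14.5 dpc. Dorsal buds of the same stage were kept at an air-liquid interface for 2 days (ALI culture) in serum-free DMEM with N2 alone (control), with 15 μM JTE013 (JTE), an antagonist of the sphingosine-1-phosphate receptor S1pr2, or with 15 μM JTE013 and 50 ng/ml connective tissue growth factor (JTE + CTGF). By the methods of the study, controls received solvent where that was appropriate and up to 3 organs or explants were pooled for each library. Fresh libraries came from whole pancreas and cultured ones from the dorsal bud, so culture and organ part cannot be told apart.

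The genes were examined because a compound can stress cells by itself. Keap1 holds Nrf2 in the cytoplasm and hands it over for degradation. Oxidants and electrophiles modify cysteines of Keap1, Nrf2 then accumulates, enters the nucleus with a small Maf partner and binds antioxidant response elements (AREs) near genes for glutathione synthesis, thiol reduction, quinone reduction and conjugation. Control of Nrf2 is largely at the level of the protein, so the RNA of its targets is the usual readout, and several of these targets, Hmox1 and Slc7a11 among them, also answer to other factors such as Atf4 and Bach1.

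A core ARE motif, TGACNNNGC, was searched on both strands of the 250 bases before each RefSeq start site (GRCm38.p6, the assembly of mm10). RefSeq windows were at hand for 7 of the 10 genes, and not for Hmox1, Gclc or Gsta4. Of all 32851 windows, 10.2% held the motif, and 3 of the 7 genes did, Nfe2l2, Gclm and 1 of the 3 starts of Txnrd1. A relaxed form, TGANNNNGC, which includes every match of the first, was found in 35.2% of all windows and in 5 of the 7 genes, adding Keap1 and Srxn1. Srxn1 held it in 3 places, and the windows of Nqo1 and Gstm1 held neither form. These 4 stretches are printed because, of their genes, Gclm was called higher in JTE explants, Txnrd1 lower and Nfe2l2 and Srxn1 not at all. Capitals mark the matched letters, which read as the reverse complement where the match lay on the other strand. The stretches are chr2:75704865-75704913 (minus strand), chr3:122245393-122245461, chr2:152105336-152105517 and chr10:82859084-82859152 (plus strand), and a match is a description of letters, not a binding site.
Nfe2l2: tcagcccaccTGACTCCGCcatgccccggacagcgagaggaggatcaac
Gclm: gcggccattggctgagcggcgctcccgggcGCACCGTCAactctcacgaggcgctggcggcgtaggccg
Srxn1: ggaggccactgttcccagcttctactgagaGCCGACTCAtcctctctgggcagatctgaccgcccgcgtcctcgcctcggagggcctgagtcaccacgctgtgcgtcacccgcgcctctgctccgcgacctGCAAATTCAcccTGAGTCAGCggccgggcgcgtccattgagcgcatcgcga
Txnrd1: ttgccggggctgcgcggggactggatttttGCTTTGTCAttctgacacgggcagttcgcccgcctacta

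Total counts lay between 11402804 and 13828737 reads per library. Library JTE 3 stood apart from the other JTE libraries, with a chi-square per gene of 16 and 21.6 against 2.86 between JTE 1 and JTE 2, and calls and list counts described here that changed without it are given both ways, a comparison added after the data were seen for the lists. S1pr2 itself had more reads under the S1pr2 null label than under wt (1358 ± 97.6 against 766 ± 5.87 normalised reads, mean ± SD, n = 3). The table counts the gene as a whole, so this count does not check an allele that interrupts the gene, and the group is called by its label throughout. Pancreatic markers were present in all groups, but their levels moved between groups together with those of other cell types. In bulk RNA, fewer cells of a type and less RNA per cell cannot be told apart.

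Values are normalised read counts, that is, reads scaled to a common effective library size, with n = 3 libraries per group. Fold changes are from edgeR's quasi-likelihood test over 16245 genes with all libraries in one fit, given as log2 ± SE, and a gene was called at a Benjamini-Hochberg adjusted p below 0.05. Per length, Gstm1 and Txnrd1 were the most abundant of the 10 RNAs and Nqo1 the least in control explants, where RPKM (reads scaled for gene length and library size) was 196 ± 11.9 for Gstm1, 81.5 ± 1.34 for Txnrd1 and 2.96 ± 0.550 for Nqo1. Between them came Gsta4 (36.3 ± 4.23), Nfe2l2 (30.3 ± 1.02), Keap1 (20.4 ± 0.929), Hmox1 (16.5 ± 2.72), Srxn1 (11.2 ± 0.806), Gclc (9.92 ± 0.470) and Gclm (8.14 ± 0.710), and no neighbours in that order overlapped in their libraries. In wt Keap1 lay above Nfe2l2 and Gclm above Srxn1, both pairs with overlapping libraries, and Gclc (11.1 ± 0.485 RPKM) lay above Srxn1 (6.2 ± 0.256) without overlap. In the libraries labelled S1pr2 null Gstm1 came below Txnrd1, at 38.4 ± 2.74 against 76.9 ± 2.47 RPKM.

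**Figure D1:**
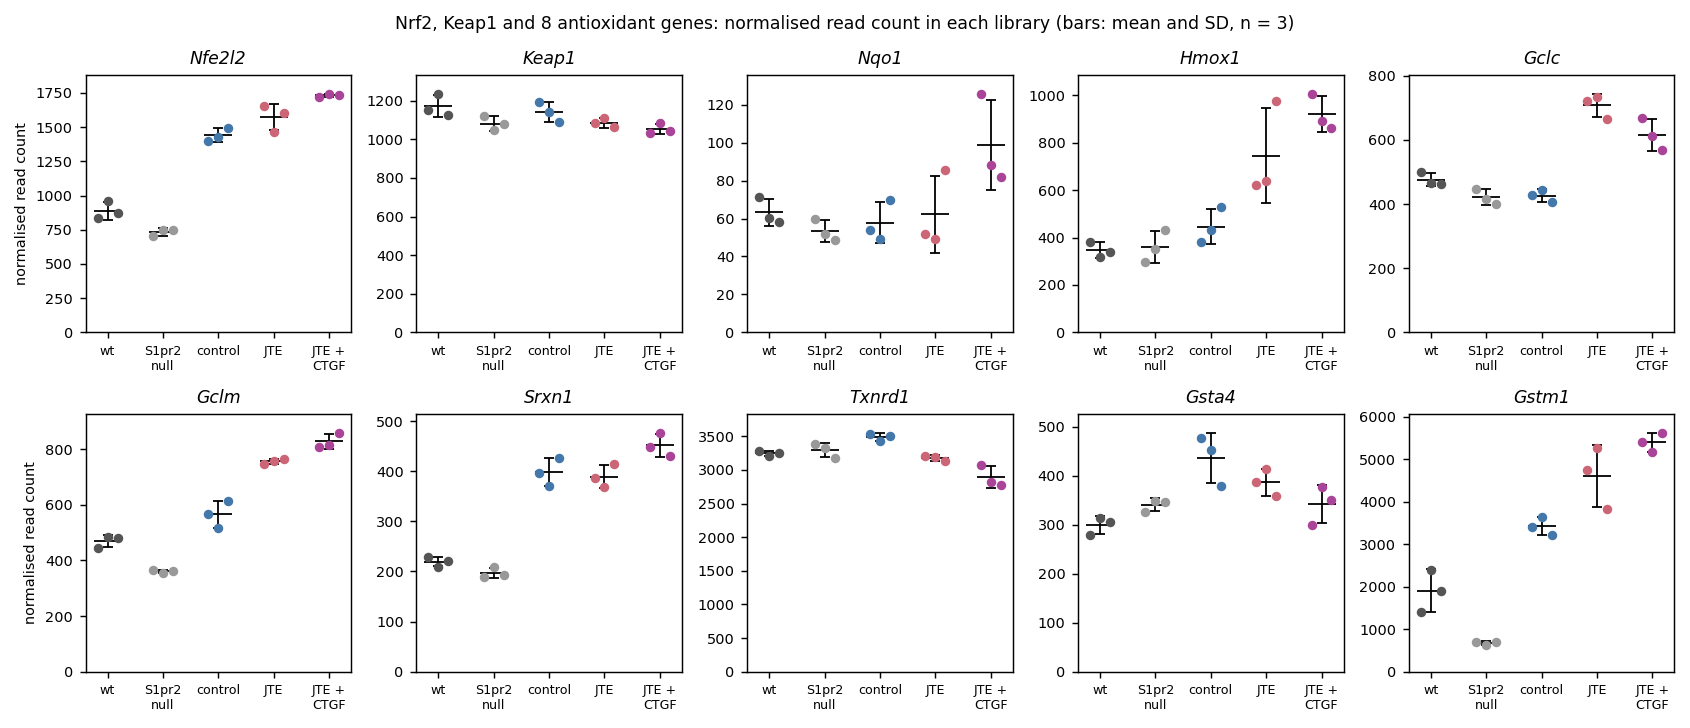
Normalised read count (vertical axes, from 0) of each of the 10 genes in the 15 libraries, by group, with the mean and SD of each group as bars. Gclc and Gclm lie higher in all 3 JTE libraries than in all 3 controls, Keap1 stays between 1035 and 1237 in every library, and Gstm1 is lowest in the libraries labelled S1pr2 null.

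Of the 2 regulators, Nfe2l2 (ENSMUSG00000015839, chr2:75675513-75704641, minus strand) rose with culture and was not called between JTE and control. It stood at 833, 961 and 874 normalised reads in wt, at 703, 749 and 751 in the libraries labelled S1pr2 null and at 1401, 1429 and 1495 in control explants. All control explants were above all wt libraries (log2 0.70 ± 0.06, edgeR adjusted p = 3.261e-08), and all libraries labelled S1pr2 null were below wt (-0.27 ± 0.06, adjusted p = 0.003041). JTE explants held 1652, 1465 and 1603 normalised reads of Nfe2l2 and JTE + CTGF explants 1716, 1742 and 1735. JTE 2 fell within the controls and the other JTE libraries above them, with a fold change of 0.13 ± 0.06 on the log2 scale (edgeR adjusted p = 0.07717, unadjusted 95% interval 0.0041 to 0.25). Without JTE 2 it was 0.18 and called (adjusted p = 0.02382). JTE + CTGF explants were higher than control for Nfe2l2 (0.26 ± 0.06, adjusted p = 7.979e-04) but were not called against JTE (0.14 ± 0.06, adjusted p = 0.0798).

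Keap1 (ENSMUSG00000003308, chr9:21229730-21239332, minus strand), the adaptor that presents Nrf2 to a ubiquitin ligase, was called in none of the comparisons in the fit used throughout. Scaling by library size only made it lower in control than in wt (log2 -0.18, edgeR adjusted p = 0.00412), where that scaling put the median of all genes at -0.167. It also made Keap1 lower in JTE + CTGF than in control (-0.16, adjusted p = 0.01171), with the median of all genes at -0.0755. Keap1 was called in this comparison without control 3 too (adjusted p = 0.03614), and with all libraries it was -0.12 (adjusted p = 0.06443). Its libraries ran from 1128 to 1237 normalised reads in wt, from 1048 to 1122 in those labelled S1pr2 null, from 1091 to 1195 in control, from 1063 to 1110 in JTE and from 1035 to 1084 in JTE + CTGF. The JTE and control libraries overlapped, and the interval of their difference was -0.18 to 0.03 on the log2 scale (edgeR adjusted p = 0.2441).

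The genes for glutathione synthesis gave the steadiest difference between JTE and control. Gclc (ENSMUSG00000032350, chr9:77754535-77794485, plus strand) encodes the catalytic subunit of glutamate-cysteine ligase, the first step of the pathway. It read 428, 445 and 405 normalised reads in control, 722, 735 and 666 in JTE and 668, 612 and 569 in JTE + CTGF. The JTE libraries were all above the controls, 1.66-fold (log2 0.73 ± 0.07, edgeR adjusted p = 2.571e-07), and the call held in each of the 15 fits that left out 1 library, between 0.69 and 0.77. JTE + CTGF explants were also above control for Gclc (0.53 ± 0.07, adjusted p = 6.523e-06). Against JTE alone they were lower by a call that rested on few libraries (-0.20 ± 0.07, adjusted p = 0.03612) and was lost without JTE 1, JTE 2, JTE + CTGF 2 or JTE + CTGF 3, at -0.26 to -0.15 over all 15 such fits. In fresh tissue Gclc lay lower under the S1pr2 null label, without a call. It was at 500, 464 and 463 normalised reads in wt and at 448, 416 and 400.4 in the libraries labelled S1pr2 null (-0.18 ± 0.07, adjusted p = 0.07975).

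Gclm (ENSMUSG00000028124, chr3:122245557-122269984, plus strand) encodes the modifier subunit of the same enzyme and carried 1 of the ARE matches printed above. It read 566, 517 and 616 normalised reads in control, 746, 758 and 764 in JTE and 810, 816 and 859 in JTE + CTGF. The 3 groups did not overlap, with JTE 1.34-fold above control (log2 0.42 ± 0.06, edgeR adjusted p = 2.506e-05) in each of 15 leave-one-out fits (0.36 to 0.48), and JTE + CTGF 0.55 ± 0.06 above control (adjusted p = 8.708e-07). In fresh tissue Gclm moved the other way. Its libraries held 444, 486 and 480.5 normalised reads in wt and 364, 354 and 363 in those labelled S1pr2 null (-0.38 ± 0.07, adjusted p = 4.056e-04), and control explants were above wt (0.27 ± 0.06, adjusted p = 0.001568), a call lost when libraries were scaled by size only (0.13, adjusted p = 0.1277). A share of 3.92% of its 50-base words also occurs in other transcripts, and its exons overlap those of 1 other gene, Gm6061, on the same strand by 244 bases.

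Hmox1 (ENSMUSG00000005413, chr8:75093591-75100596, plus strand), heme oxygenase 1, which splits heme into biliverdin, iron and carbon monoxide, rose in the JTE explants. Control libraries stood at 382, 430.3 and 527 normalised reads, JTE libraries at 620.0, 640.2 and 977, and JTE + CTGF libraries at 1007, 893 and 862. No JTE library overlapped the controls, but JTE 3 was far above the other JTE libraries. The JTE change was 1.67-fold (log2 0.74 ± 0.16, edgeR adjusted p = 9.214e-04), and without JTE 3 it was smaller and still called (0.50, adjusted p = 0.004148). JTE + CTGF explants exceeded control by 1.04 ± 0.16 (adjusted p = 2.718e-05). Against JTE alone their Hmox1 was not called with all libraries (0.30 ± 0.15, adjusted p = 0.153), and was called without JTE 3 (0.58, adjusted p = 0.002079). In fresh tissue Hmox1 held 382, 316 and 341 normalised reads in wt and 298, 352 and 432 in the libraries labelled S1pr2 null, which overlapped (0.06 ± 0.17, adjusted p = 0.8283). Macrophages, which express Hmox1 when they degrade red cells, were followed through 10 markers. Their summed level was 6264 to 6421 normalised reads in control, 2229 to 2815 in JTE and 1988 to 2871 in JTE + CTGF, against 2629 to 2713 in wt and 2780 to 3064 in the libraries labelled S1pr2 null. In JTE explants 9 of the 10 markers were lower than in control and none was higher, Csf1r among them at 557 to 786 normalised reads in control and 70.7 to 79.4 in JTE. The one without a call was Cd163, which was near 0 in control already, at 0 to 2.12, and at 0 in all JTE libraries (adjusted p = 0.1435). Among the explants Hmox1 was thus higher in JTE and JTE + CTGF, where these markers were lower than in control. In wt the sum of the markers was also below control, with 7 of 10 called higher in control than in wt and 2 lower. Hmox1 was not called between control and wt (log2 0.37 for control against wt, edgeR adjusted p = 0.07508). Without JTE 3 Hmox1 was called higher in control than in wt. The part of macrophages in these values was not tested.

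Nqo1 (ENSMUSG00000003849, chr8:107388225-107403206, minus strand), the quinone reductase most often used as a marker of Nrf2 activity, was not called between JTE and control. It was the least covered of the 10 genes, with 48 to 110 reads per library. Controls held 54.1, 49.3 and 69.8 normalised reads and JTE libraries 51.8, 49.0 and 85.6. JTE 1 lay within the controls, JTE 2 just below the lowest of them and JTE 3 above all of them, and the difference was 0.12 ± 0.23 on the log2 scale, with an interval from -0.36 to 0.59 (edgeR adjusted p = 0.6902). Without JTE 3 its sign turned (-0.19, adjusted p = 0.4816). With CTGF added, Nqo1 read 126, 88.2 and 81.7 normalised reads, which was above every control (0.77 ± 0.22, adjusted p = 0.005551) and overlapped JTE through JTE 3. The call against JTE (0.66 ± 0.21, adjusted p = 0.02874) was lost without JTE 1, JTE 2 or JTE + CTGF 1, and over the 15 leave-one-out fits the value ran from 0.44 to 1.00. Fresh libraries ranged from 58.2 to 71.1 in wt and from 48.8 to 59.9 in those labelled S1pr2 null, and were not called (adjusted p = 0.453).

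Srxn1 (ENSMUSG00000032802, chr2:152105516-152111376, plus strand) encodes sulfiredoxin, which restores overoxidised peroxiredoxins, and was the gene with 3 relaxed ARE matches. It did not differ detectably between JTE and control. The controls stood at 397, 370.0 and 427 normalised reads and the JTE libraries at 386, 368 and 414. These overlapped throughout, and the difference was -0.03 ± 0.07 with an interval of -0.19 to 0.12 (edgeR adjusted p = 0.7474). JTE + CTGF explants read 448, 476 and 430.0 for Srxn1, slightly above every control and every JTE library. The calls, 0.18 ± 0.07 against control (adjusted p = 0.03913) and 0.21 ± 0.07 against JTE (adjusted p = 0.03511), were each lost when any of 4 libraries was left out: control 1, control 2, JTE + CTGF 1 or JTE + CTGF 2 for the first and JTE 1, JTE 2, JTE + CTGF 1 or JTE + CTGF 2 for the second. Leave-one-out values ran from 0.13 to 0.23 for the first and from 0.17 to 0.30 for the second, and neither was called by DESeq2 (adjusted p = 0.1151 and 0.0586). The wide difference was with culture, since wt libraries held 228, 210 and 221 normalised reads and those labelled S1pr2 null 189, 209 and 194. Control explants were 1.81-fold above wt (log2 0.86 ± 0.08, adjusted p = 6.401e-08).

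Txnrd1 (ENSMUSG00000020250, chr10:82859206-82897724, plus strand), cytosolic thioredoxin reductase, was lower in the JTE explants by a small amount. Control libraries read 3538, 3427 and 3511 normalised reads, JTE libraries 3211, 3199 and 3130 and JTE + CTGF libraries 3080, 2824 and 2770. The 3 groups did not overlap. The JTE change of -0.14 ± 0.05 (log2, edgeR adjusted p = 0.02348) was lost without control 1, control 3, JTE 2 or JTE 3, at adjusted p of up to 0.06731, with the value between -0.15 and -0.12. Keeping low-count genes in the fit also ended the call (-0.13, adjusted p = 0.08519). The change in JTE + CTGF against control was -0.27 ± 0.05 (adjusted p = 9.842e-05) and held in all 15 leave-one-out fits. Fresh libraries, at 3205 to 3280 in wt and 3182 to 3389 in those labelled S1pr2 null, overlapped (0.02 ± 0.05, adjusted p = 0.7645).

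The glutathione transferases moved apart from each other. Gsta4 (ENSMUSG00000032348, chr9:78191966-78209348, plus strand), which conjugates the lipid peroxidation product 4-hydroxynonenal, read 477, 452 and 379 normalised reads in control, 387, 414 and 358 in JTE and 300.0, 377 and 351 in JTE + CTGF. The JTE libraries overlapped the controls through control 3 (-0.18 ± 0.09, edgeR adjusted p = 0.1252), while the JTE + CTGF libraries all lay below them (-0.35 ± 0.10, adjusted p = 0.004552). Without control 3 the JTE difference was -0.27 and called (adjusted p = 0.02476). Gsta4 was at 279, 314 and 305 normalised reads in wt and at 325, 349 and 347 in the libraries labelled S1pr2 null, without overlap but also without a call (0.19 ± 0.10, adjusted p = 0.1717).

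Gstm1 (ENSMUSG00000058135, chr3:108012255-108017973, minus strand), a mu-class glutathione transferase, varied most of the 10 in fresh tissue. It stood at 1393, 2404 and 1906 normalised reads in wt and at 695, 617 and 704 in the libraries labelled S1pr2 null, 2.83-fold lower (log2 -1.50 ± 0.15, edgeR adjusted p = 2.259e-06) in each of 15 leave-one-out fits. Explants held 3395, 3642 and 3228 normalised reads in control, 4737, 5271 and 3823 in JTE and 5410, 5165 and 5611 in JTE + CTGF. All JTE libraries exceeded the controls, JTE 3 by the least (0.43 ± 0.14, adjusted p = 0.01475). This call was lost without control 3 (0.39, adjusted p = 0.05025) or JTE 2 (0.32, adjusted p = 0.07935), and without JTE 3 the change was larger (0.55, adjusted p = 0.002381). JTE + CTGF explants were 0.66 ± 0.14 above control (adjusted p = 5.583e-04). Of its 50-base words 18.9% occur also in transcripts of Gstm2, Gstm3 and pseudogenes of the family. Since reads that fit several loci were not counted, reads from these stretches can be missing from the count of Gstm1, and its level is uncertain to that extent.

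**Figure D2:**
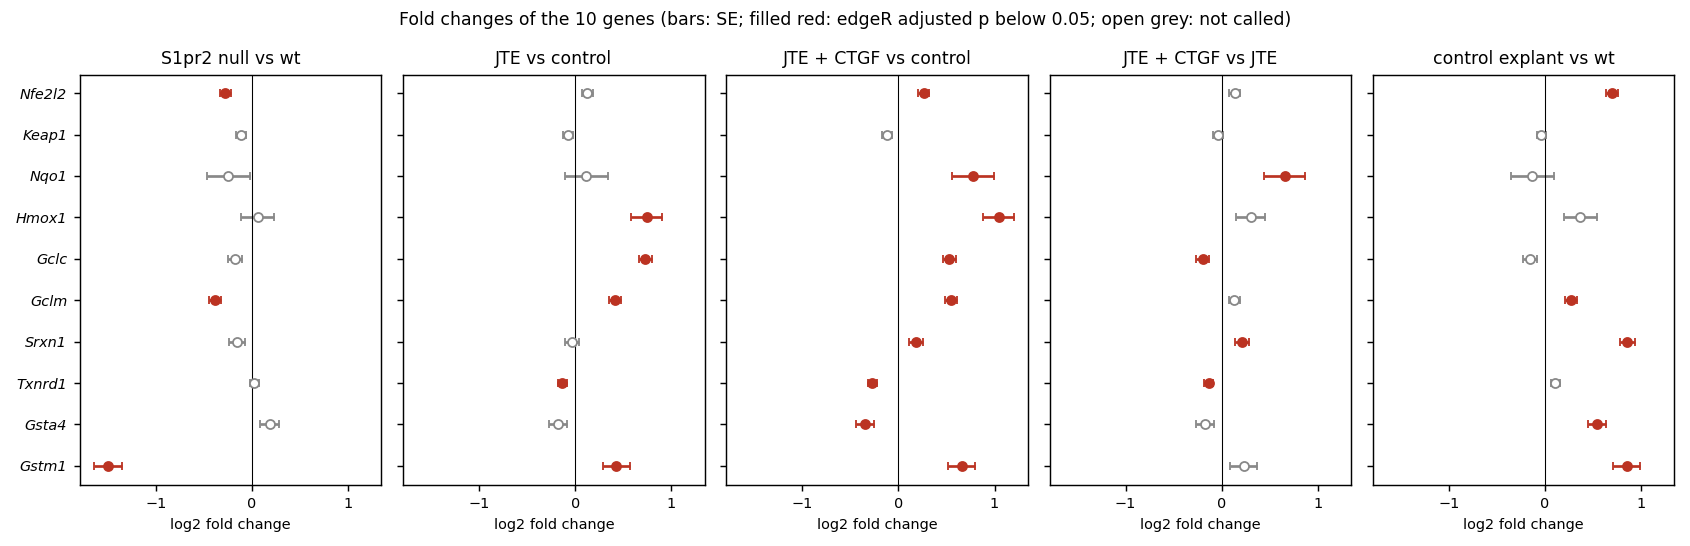
Log2 fold change of each gene (horizontal axes) in 5 comparisons, with the SE as bars and genes called at an edgeR adjusted p below 0.05 filled in red. In JTE against control, Hmox1, Gclc, Gclm and Gstm1 lie to the right and Txnrd1 slightly to the left, and Keap1 is open in every panel.

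Counted together, 4 of the 10 genes were called higher in JTE than in control (Hmox1, Gclc, Gclm and Gstm1) and 1 lower (Txnrd1). Over all 16245 genes tested, 52.2% were called in this comparison, 25.9% higher and 26.2% lower, so that a count of 5 in 10 is near the share of the whole table. The libraries of 5 of the 10 did not overlap, against 56.7% of all genes. The median fold change of the 10 was 0.121 on the log2 scale against 0 for all genes. Without JTE 3 it was 0.026, and 4 genes were called, Txnrd1 being the one lost. The genes that rose were those of glutathione synthesis, heme oxygenase and a transferase. Of Nqo1, Srxn1 and Txnrd1, which reduce quinones and thiols, none was called higher.

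Markers of other cells moved in the same comparison. Endocrine markers were lower in JTE in 6 of 6, with sums of 13360 to 17480 normalised reads against 61000 to 70180 in control, and in 5 of 6 without JTE 3. Hepatocyte markers were lower in 4 of 6, with sums of 1870 to 2681 against 5075 to 5766, and in 3 of 6 without JTE 3. Of 9 epithelial markers 5 were lower and 1 higher, or 5 and 4 without JTE 3, and their sums overlapped. Of 6 acinar markers tested 1 was lower and none higher. Without JTE 3, 1 of 7 was lower and 2 were higher, Cpa1 (log2 0.68, edgeR adjusted p = 5.985e-04) and Ctrb1 (0.49, adjusted p = 0.03653). Of 6 mesenchymal markers 2 were lower and 1 higher, and no erythroid marker was called. In JTE + CTGF against control the endocrine markers were again lower in 6 of 6, and 4 of 9 erythroid markers were higher. The part of these cell types in the results for the 10 genes was not tested.

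In JTE + CTGF against control, 7 of the 10 were called higher and 2 lower, at a background of 61.1% (28.1% higher and 33% lower) and a median of 0.398 against -0.0322 for all genes. The libraries of all 10 did not overlap, against 64.8% of all genes. Both JTE comparisons use the same controls. Against JTE alone, adding CTGF gave 2 higher (Nqo1 and Srxn1) and 2 lower calls (Gclc and Txnrd1) at a background of 30.4%, with a median of 0.135 against -0.00223 for all genes. The libraries of 4 did not overlap, against 40.2%. None of the 4 was called without JTE 1, none without JTE 2 and none when only these 6 libraries entered the fit. With low-count genes kept in the fit the split was 4 higher and none lower (Nqo1, Hmox1, Srxn1 and Gstm1). Without JTE 3 there were 5, Nfe2l2, Nqo1, Hmox1 and Srxn1 higher and Gclc lower.

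In the libraries labelled S1pr2 null, 3 of the 10 were called lower than wt (Nfe2l2, Gclm and Gstm1) and none higher, at a background of 25.8% (12.6% higher and 13.3% lower). The median was -0.164 against -0.0116 for all genes, and the libraries of 7 did not overlap, against 46.3%. These 3 calls held in all 15 leave-one-out fits. Acinar and endocrine markers were lower in the same libraries, 4 of 6 acinar markers tested (summed level 26290 to 28820 normalised reads against 76150 to 128600 in wt) and 6 of 6 endocrine markers (8386 to 10300 against 19610 to 22930). Erythroid markers were higher in sum, at 13050 to 18040 against 8005 to 10110, with 3 of 9 called. The part of these cell types in the results for Nfe2l2, Gclm and Gstm1 was not tested.

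Control explants differed from fresh wt pancreas in 5 of the 10, all higher (Nfe2l2, Gclm, Srxn1, Gsta4 and Gstm1), at a background of 57.8% (28.5% higher and 29.3% lower). With DESeq2, with only the libraries compared and without JTE 3, Hmox1 and Txnrd1 were called higher as well, which made 7. The absence of lower calls depended on the scaling. By library size only 4 were higher and 2 lower, Gclc (-0.30, edgeR adjusted p = 0.001137) and Keap1, against a median of all genes of -0.167 in that scaling, and with the replicate number as a block 6 were higher and 1 lower, again Gclc (-0.16, adjusted p = 0.03444). With the TMM scaling used throughout the median was 0.317 against -0.0233 for all genes, and the libraries of 8 did not overlap, against 63.8%. Acinar markers were higher in the explants in 6 of 6 tested, with sums of 576100 to 770400 normalised reads, and erythroid markers were lower in 9 of 9, with sums of 179 to 443. Macrophage markers were higher in 7 of 10 and lower in 2. What these shifts contribute was not tested.

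JTE013 in explants and the S1pr2 null label in fresh tissue are 2 ways in which the study addressed the same receptor, and their effects on the 10 genes were compared. No difference was called for Keap1, Nqo1, Srxn1 and Txnrd1. The difference of the responses (JTE minus control, less S1pr2 null minus wt) was called in 6 genes at a background of 42.9%, with 5 positive and 1 negative against 21.5% each way. For Gclc it was 0.91 ± 0.10 on the log2 scale (edgeR adjusted p = 2.521e-06), for Gclm 0.80 ± 0.09 (adjusted p = 2.915e-06) and for Gstm1 1.93 ± 0.20 (adjusted p = 1.524e-06). Gclm and Gstm1 were called in opposite directions in the 2 comparisons. For Nfe2l2 it was 0.40 ± 0.08 (adjusted p = 0.001025), and these 4 calls held in every leave-one-out fit. For Hmox1 it was 0.68 ± 0.23 (adjusted p = 0.02725), called in 9 of 15 such fits and not without JTE 3 (0.44, adjusted p = 0.05861). For Gsta4 it was -0.36 ± 0.13 (adjusted p = 0.03786), called in 7 of 15 and not without JTE 3. The responses were measured in different material, cultured dorsal bud and fresh whole pancreas, which cannot be told apart from the difference between compound and genotype.

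**Figure D3:**
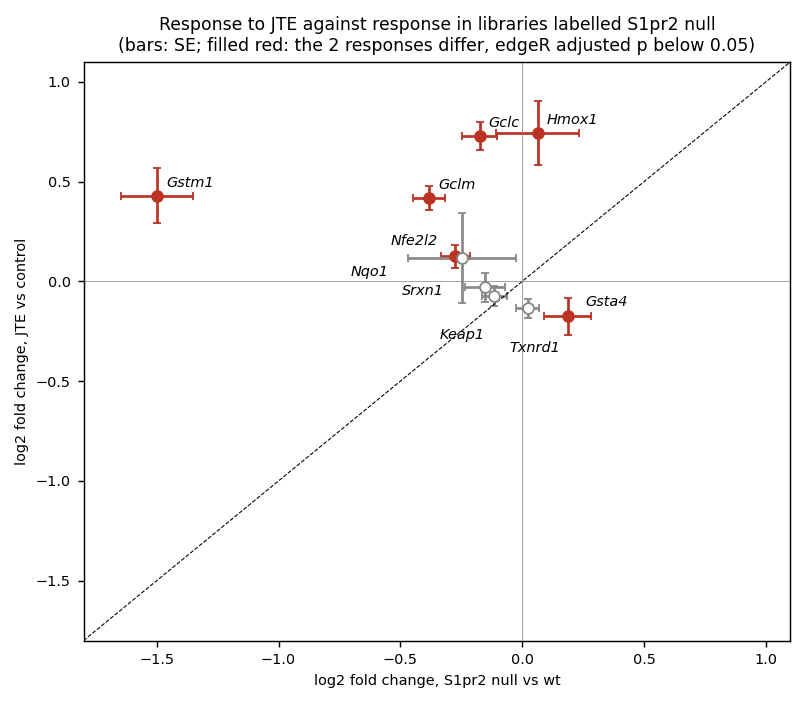
Log2 fold change of each gene in JTE against control (vertical axis) and in the libraries labelled S1pr2 null against wt (horizontal axis), with SE bars and the line of equal change dashed. Gstm1, Gclm, Gclc, Hmox1 and Nfe2l2 lie above the line and Gsta4 below it, all 6 filled in red, which marks a called difference of the 2 responses.

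A wider list of 50 genes of the Nrf2 pathway, drawn up from general knowledge without these 10, had 46 members tested (not Aldh3a1, Gsta1, Gsta2 and Gstp2). In JTE against control 20 of the 46 were called higher and 17 lower, where 25.9% and 26.2% of all genes were, and the median was 0.021 against 0 for all genes, with 18 and 16 called without JTE 3. In the libraries labelled S1pr2 null 3 were higher and 11 lower, where 12.6% and 13.3% of all genes were, with a median of -0.114 against -0.0116 for all genes. In the JTE explants its roles went different ways. Their counts below stand beside the 25.9% higher and 26.2% lower of all genes.

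Among its regulators, 4 of 9 were higher and 1 lower, and 3 and 1 without JTE 3, Cul3 being the one lost (0.11, edgeR adjusted p = 0.08182). Nfe2l1, a relative of Nrf2 that controls proteasome genes, read 3542 to 3782 normalised reads in control and 6959 to 7229 in JTE (log2 0.97 ± 0.04, edgeR adjusted p = 3.234e-11). Sqstm1 (p62), which draws Keap1 into autophagy, read 3752 to 4136 and 6326 to 7105 (0.75 ± 0.05, adjusted p = 1.051e-08). Bach1, the repressor that occupies AREs when heme is scarce, was not called with JTE (0.01 ± 0.06, interval -0.13 to 0.14, adjusted p = 0.9381). It was above wt in the libraries labelled S1pr2 null (0.49 ± 0.06, adjusted p = 3.416e-05) and lower in JTE + CTGF than in JTE (-0.43 ± 0.06, adjusted p = 1.163e-04).

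Slc7a11, the cystine importer that feeds glutathione synthesis, rose most of the tested list in JTE. Its libraries held 75.4, 93.5 and 56.2 normalised reads in control and 484, 502 and 469 in JTE (log2 2.69 ± 0.15, edgeR adjusted p = 5.076e-10), with JTE + CTGF at 344 to 388 (-0.40 ± 0.13 against JTE, adjusted p = 0.02408). Gpx2, a glutathione peroxidase of the gut epithelium, fell most. It held 269, 253 and 361 normalised reads in control and 52.9, 47.0 and 75.3 in JTE (-2.32 ± 0.17, adjusted p = 8.304e-09). Both genes serve glutathione metabolism, and for neither did the control and JTE libraries overlap.

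Of 7 other glutathione transferases tested, 6 were higher in JTE and none lower, where 25.9% and 26.2% of all genes were. Changes ran from 0.23 for Gstp1 (edgeR adjusted p = 0.008429) to 1.27 for Gstm6 (adjusted p = 0.002304), although 33.7% of the 50-base words of Gstp1 and 28.8% of those of Gstm3 are shared with other loci. Of the genes for heme and iron, Fth1 (0.67 ± 0.09, adjusted p = 1.023e-05) and Ftl1 (0.78 ± 0.08, adjusted p = 9.208e-07), the subunits of ferritin, and Blvrb (0.62 ± 0.10, adjusted p = 4.98e-05) were higher. Blvra, biliverdin reductase A, was lower (-0.63 ± 0.10, adjusted p = 5.152e-05).

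Genes of the thioredoxin branch and of NADPH supply were mostly lower. All 3 of the thioredoxin branch were called lower in JTE, Txn1 by -0.23, Prdx1 by -0.25 and Prdx6 by -0.28 (log2, largest edgeR adjusted p = 0.004079). All 3 were called higher in JTE + CTGF than in JTE, by 0.18, 0.30 and 0.21, where 13.6% of all genes were. Prdx6 lost this call without JTE 3 (0.17, adjusted p = 0.06247). Of 6 genes for NADPH supply 5 were called lower in JTE and none higher, where 26.2% and 25.9% of all genes were. Without JTE 3 there were 4 lower, with Taldo1 lost (-0.17, adjusted p = 0.05614). Pgd changed by -0.60 ± 0.05 (adjusted p = 6.434e-08) and G6pdx, the entry of the pentose phosphate pathway, by -0.27 ± 0.05 (adjusted p = 1.834e-04). Of 7 genes for carbonyl reduction and conjugation 2 were higher and 4 lower, and of 4 exporters 2 and 1. Osgin1, an oxidative stress-induced growth inhibitor, held 118 to 127 normalised reads in control and 222 to 286 in JTE (1.07 ± 0.11, adjusted p = 8.574e-07). Trim16, which acts in autophagy of ubiquitinated proteins, held 294 to 300 and 88.4 to 105 (-1.62 ± 0.11, adjusted p = 4.105e-09).

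**Figure D4:**
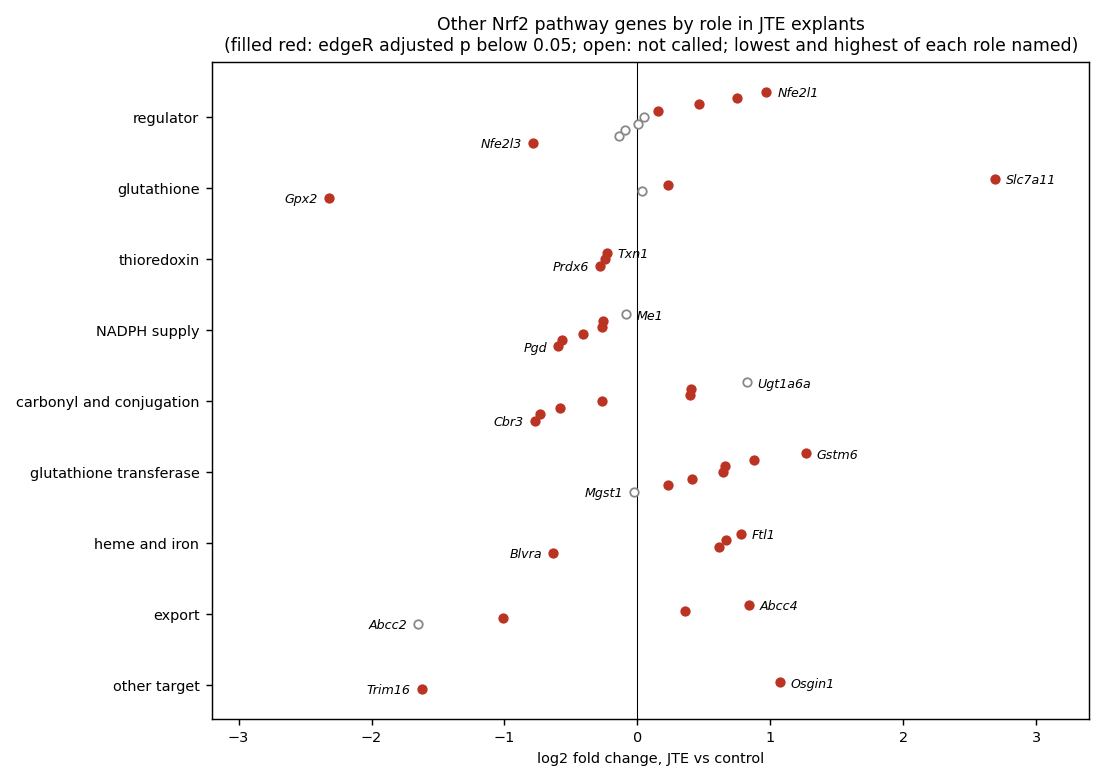
Log2 fold change in JTE against control (horizontal axis) of the 46 tested genes of the wider list, in rows by role, with called genes in red and the lowest and highest of each row named. Glutathione transferases and ferritin lie to the right of 0 and genes of the thioredoxin branch and NADPH supply to the left.

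Among genes of the list with over 100 normalised reads in wt or in the libraries labelled S1pr2 null, the largest change between these groups was in Ephx1, microsomal epoxide hydrolase, with 98.1, 122 and 100.4 normalised reads in wt and 35.3, 38.8 and 42.1 in those libraries (log2 -1.45 ± 0.13, edgeR adjusted p = 1.206e-06). Osgin1 (-0.53 ± 0.12, adjusted p = 0.003271) and Gpx2 (-0.49 ± 0.13, adjusted p = 0.01012) were lower too. Of the genes with fewer reads, named after their values were seen, Ugt1a6a (-2.56 ± 0.51, adjusted p = 0.001315) and Gstm3 (-1.88 ± 0.31, adjusted p = 3.397e-04) fell further than Ephx1. The change of Osgin1 was thus opposite to that in JTE explants and the change of Gpx2 of the same sign. In control explants against wt, Ephx1 (2.10 ± 0.10, adjusted p = 2.094e-11), the exporter Abcc3 (1.98 ± 0.12, adjusted p = 5.295e-10), Nfe2l3, another relative of Nrf2 (1.97 ± 0.13, adjusted p = 1.051e-09), and Me1, malic enzyme (1.46 ± 0.11, adjusted p = 6.676e-09), were higher. Of the 46 tested, 24 were called higher and 13 lower there, where 28.5% and 29.3% of all genes were. The exporters Abcc4 (-0.41 ± 0.07, adjusted p = 2.728e-04) and Abcc1 (-0.41 ± 0.06, adjusted p = 9.731e-05) were lower in JTE + CTGF than in JTE. In that comparison 12 of the 46 were called higher and 5 lower, where 13.6% and 16.8% of all genes were. Without JTE 3 the counts were 15 and 5.

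Other stress programmes were read from lists of the same kind, and in JTE against control 25.9% of all genes were called higher and 26.2% lower. Of 17 antioxidant enzymes not tied to Nrf2, 6 were higher and 8 lower in JTE than in control, with Txnrd3 up (log2 1.06 ± 0.12, edgeR adjusted p = 1.501e-06) and the extracellular dismutase Sod3 down (-1.06 ± 0.22, adjusted p = 5.972e-04). In JTE + CTGF against JTE 11 of the 17 were higher, where 13.6% of all genes were, and none was lower. Of 14 heat shock genes 3 were higher and 3 lower in JTE, Hspd1 of the mitochondria among the former (0.47 ± 0.04, adjusted p = 2.26e-07) and Cryab among the latter (-1.34 ± 0.18, adjusted p = 7.571e-06). The median of the 17 was -0.234 in JTE against 0 for all genes, and their summed level was 15260 to 16210 normalised reads in JTE against 17750 to 19200 in control, without overlap. The median of the heat shock genes was 0.0215, and their sums overlapped.

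Atf4 and its targets, the amino acid and endoplasmic reticulum stress response, were higher in JTE in 17 of 18 genes, and none was lower, with a median of 1.7 against 0 for all genes. Ddit3 (CHOP) read 221, 251 and 241 normalised reads in control and 2326, 2275 and 3324 in JTE (log2 3.48 ± 0.14, edgeR adjusted p = 1.382e-11). Trib3, an inhibitor that Atf4 and Ddit3 induce, read 101 to 144 in control and 3346 to 4213 in JTE (4.89 ± 0.15, adjusted p = 5.375e-13). Slc7a11 stands in this list as well as in that of Nrf2. In the libraries labelled S1pr2 null 8 of the 18 were lower and none higher, where 13.3% of all genes were lower and 12.6% higher.

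Metallothioneins, which bind zinc, copper and heavy metals and are induced through Mtf1, changed more in JTE than any of the 10 genes. Mt1 held 2040, 2377 and 2122 normalised reads in control, 17160, 16870 and 17990 in JTE and 20240, 18310 and 22010 in JTE + CTGF. In JTE this was 2.99 ± 0.13 on the log2 scale (edgeR adjusted p = 1.817e-11). Mt2 rose by 3.03 ± 0.13 (adjusted p = 1.602e-11). In the libraries labelled S1pr2 null both were lower than in wt, Mt1 by -1.23 ± 0.12 (adjusted p = 3.053e-06) and Mt2 by -1.19 ± 0.12 (adjusted p = 3.932e-06).

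The aryl hydrocarbon receptor is a xenobiotic sensor that shares Nqo1 with Nrf2 as a target. Of 5 genes tested for the receptor and its targets, 4 were higher in JTE and 1 lower, but 2 and 1 without JTE 3. The lower gene was that of the receptor itself, Ahr, at -0.35 on the log2 scale. Without JTE 3 Ahr was at -0.40 (edgeR adjusted p = 5.154e-04). Tiparp read 269 to 294 normalised reads in control and 443 to 571 in JTE (log2 0.82 ± 0.10, edgeR adjusted p = 2.575e-06), and Cyp1b1 243 to 329 and 307 to 593 (0.56 ± 0.20, adjusted p = 0.02841). JTE 3 held the highest value of Cyp1b1, which was not called without it (0.20, adjusted p = 0.2912). Cyp1a1, named after its values were seen, had 0, 0 and 3 reads in control, 74, 42 and 123 in JTE and 79, 46 and 43 in JTE + CTGF, and none in any fresh library. Against a floor of 3 reads per library it was at least 25.3-fold higher in JTE and at least 20.8-fold higher in JTE + CTGF than in control.

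**Figure D5:**
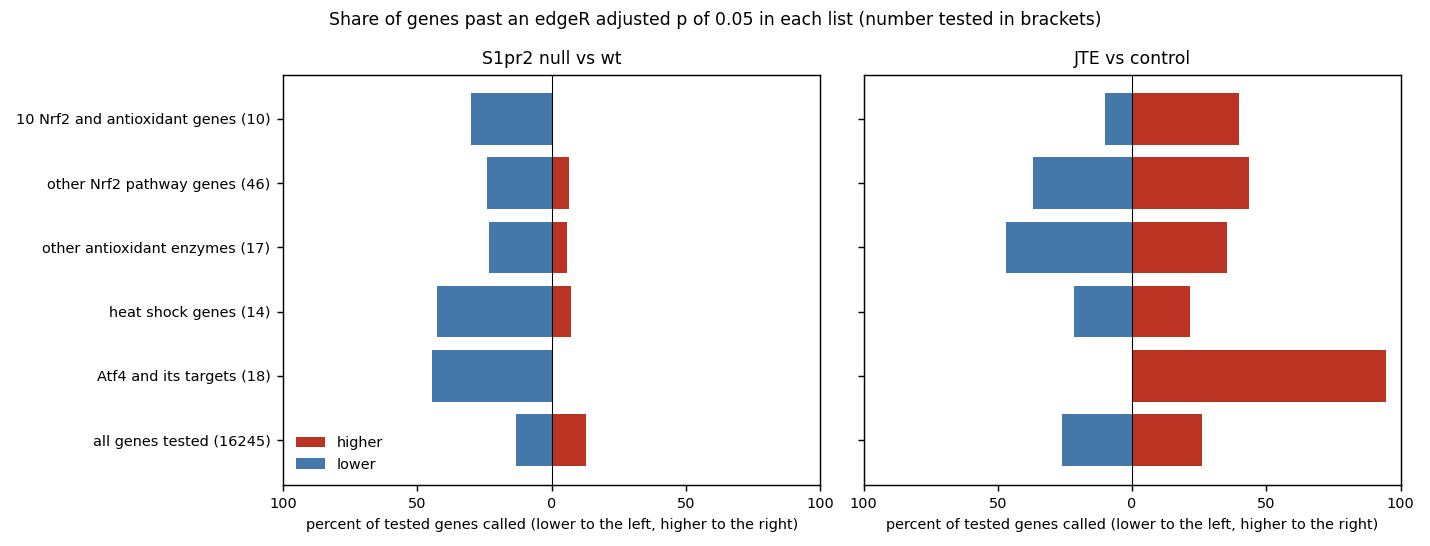
Percent of tested genes called lower (blue, to the left) or higher (red, to the right) in each list and over all genes, in the libraries labelled S1pr2 null against wt and in JTE against control. In JTE the 10 genes and the wider Nrf2 list have bars on both sides, as does the whole table, and the bar of Atf4 and its targets lies on the higher side only.

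The genes whose pattern over the 15 libraries was most like that of Srxn1 and of Nqo1 were found by the root mean square distance of centred log2 values over 11376 genes. For Srxn1 (own root mean square 0.492) they were Tcirg1 (0.0897), a subunit of the vacuolar proton pump, Grn (0.0953), progranulin, and Unc93b1 (0.0974), a chaperone of endosomal receptors. For Nqo1 (0.375) they were Olfm1 (0.184), Nckipsd (0.195) and Siah1a (0.22), at distances that were not small beside its own variation.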

How the data were processed

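Poly(A) RNA was sequenced from 15 libraries, and the sample titles gave each library's group and replicate number. The authors aligned single-end reads to mm10 with GSNAP and Ensembl splice sites and deposited raw read counts of uniquely aligned reads per Ensembl gene, made with featureCounts 1.4.6 per the labels. The counts were not normalised. The kit kept the strand, but whether the counting used it was not stated, so overlapping genes can share reads, and reads that fit several loci were not counted. The deposited table also gives a summed exon length, used here for RPKM. No label gives a date or batch. Every column was mapped to 1 sample.

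Symbols came from GENCODE M21 and were found for 97.9% of 25292 identifiers. Coordinates are those of the count table in mm10. Promoter sequences are from RefSeq GRCm38.p6. Total counts were 11402804 to 13828737 reads, at which the counting error of Nqo1 exceeds the typical variation between replicates of 7.3%. The floor of 3 reads covers counting error only.

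The test was edgeR's quasi-likelihood F-test (version 4.0.16, R 4.3.3, with TMM factors, filterByExpr, 1 coefficient per group, all 15 libraries, no covariate), with Benjamini-Hochberg adjustment over 16245 genes. Labels do not say whether replicates came from separate litters, so p-values measure the spread between these libraries. The steps were tested on simulated counts with known changes. Alternatives were RLE factors, library size only, DESeq2 1.42.0, no filter, only the libraries compared, the replicate number as a block, the criterion of the study (adjusted p of at most 0.1, fold change under 0.6 or over 1.6, and over 100 normalised reads in 1 of the groups), and leaving out each library. The 10 genes and all lists were chosen with earlier results of these data known. Beside the 10, the text names the 4 genes of the wider list with the largest called change and more than 100 normalised reads in each of 4 comparisons, 2 genes of each stress list, Slc7a11, Sqstm1, Bach1, Nfe2l1, Mt1, Mt2 and S1pr2. Genes named for a role in the heme and iron, thioredoxin, NADPH and transferase groups were added after their values were seen. The likeness search was also run for Hmox1, and its result is not reported here.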

Additional observations from a re-analysis of the deposited data

Results flagged for a closer look

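For 6 of the 10 genes the response to JTE in explants differed from the response in fresh libraries labelled S1pr2 null, by edgeR's test of the difference itself with adjustment over all genes. On the log2 scale the difference was 1.93 for Gstm1, 0.91 for Gclc, 0.80 for Gclm, 0.68 for Hmox1, 0.40 for Nfe2l2 and -0.36 for Gsta4. The calls of Hmox1 and Gsta4 were lost without JTE 3 and in several other fits without 1 library. Over all genes tested 42.9% were called for such a difference. Groups of 3 libraries were too small for a test of single outlying libraries.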

How the results depend on the processing

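Counts of the 10 genes called depended mostly on the call rule. By the criterion of the study 1 gene was called in the libraries labelled S1pr2 null, 2 in JTE against control, 1 in JTE + CTGF against control, 0 in JTE + CTGF against JTE and 3 in control against wt, since the criterion asks for larger changes. JTE + CTGF against JTE also gave 2 with DESeq2 and 0 with only its 6 libraries in the fit, against 4. With 1 library left out, the counts were 3 to 3 in the libraries labelled S1pr2 null, 4 to 5 in JTE against control, 8 to 10 in JTE + CTGF against control, 0 to 5 in JTE + CTGF against JTE, 5 to 7 in control against wt and 4 to 7 for the difference of responses. The share of all genes called under each alternative is not given here, so these counts are compared only with each other. Of the values of single genes under these alternatives 1207 kept direction and call, 79 lost a call, 28 gained one and 6 turned sign, none of the 6 called. These were Hmox1 in the libraries labelled S1pr2 null without replicate 3 of that group (-0.09007, with -0.09007 to 0.1796 over fits without 1 library), Nqo1 in JTE without JTE 3 (-0.1947, range -0.1947 to 0.2755), Srxn1 in JTE without control 3 (0.02251) or JTE 2 (0.01029, range -0.08135 to 0.02251), Keap1 in control against wt without wt 2 (0.001523, range -0.07076 to 0.001523) and Txnrd1 in control against wt by library size only (-0.03762), where that scaling moved the median of all genes to -0.167. The cause was not tested.

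Whether replicate numbers pair the libraries was not settled for JTE and control. Their same-numbered libraries correlated at -0.0473, 0.148 and 0.248, and 3 of 6 correlated best with their own number. In the other comparisons the correlations were -0.097 to 0.0687, and 0 to 2 of 6 libraries correlated best with their own number. With the replicate block 4, 5, 8, 4, 7 and 6 genes were called in the 6 comparisons, in the order above. Depth limits Nqo1 most, at 48 to 110 reads per library.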
